A study of Homo sapiens with 12 samples.

Results

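The genes described here are 10 genes of the contractile actin cytoskeleton, ACTA2, TAGLN, MYL9, CNN1, CNN2, TPM1, TPM2, CALD1, ACTN1 and FLNA, taken by symbol from the 56269 genes of the count table. RNA-seq was performed on 12 libraries of HEYA8, an established ovarian cancer cell line labelled as high grade serous ovarian cancer, grown in medium with 10% serum and collected unstimulated. The cells carried a lentiviral construct of betaglycan (BG, the type III TGF-β receptor, gene TGFBR3) or the vector alone, and infected cells were sorted as populations on a dTomato marker. The 4 groups of 3 libraries were the control vector, ∆GAG-BG (serines 534 and 545 both changed to alanine, so that both attachment sites for glycosaminoglycan chains are lost), S534A (written CS-BG in the study) and S545A (HS-BG). The third library of S545A carries the title S545S-3 but the genotype label S545A. No cells with unmutated BG are among the 12 libraries. The comparisons ask whether the level of contractile genes in resting cells differs between these groups, and none sets a mutant against unmutated BG.

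Contractile force in a cell comes from non-muscle or smooth muscle myosin pulling on actin filaments. Filamin and α-actinin crosslink the filaments, tropomyosins coat them, and calponins, transgelin and caldesmon bind them and modulate myosin. Many genes of the set are known targets of serum response factor (SRF) and its actin-sensing cofactors, the myocardin-related transcription factors, and ACTA2, TAGLN and CNN1 are classical TGF-β-induced markers of smooth muscle cells and myofibroblasts. SRF binds the CArG box, 10 bases written as CC, then 6 bases that are each A or T, then GG.

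Of the 10 genes, 8 had at least 1 promoter window (250 bases before to 50 after a start site, RefSeq, GRCh38.p14), and TAGLN and MYL9 had none. A CArG box was in a window of 3 of these 8 genes, of which CNN2 and FLNA are shown, and in 454 of all 35116 windows (1.29%). The box reads the same motif on both strands, so 1 search covers both. Both stretches are printed because this is the element through which SRF acts. Each runs from 30 bases before the box to the last base before the start site, 5′ to 3′ on the gene's strand, with the box in capitals. They lie at chr19:1026489-1026607 (plus strand, CNN2) and chrX:154374635-154374758 (minus strand, FLNA), both in GRCh38.p14.
CNN2: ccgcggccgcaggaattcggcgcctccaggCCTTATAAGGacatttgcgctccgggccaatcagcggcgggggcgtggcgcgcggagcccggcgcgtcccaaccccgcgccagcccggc
FLNA: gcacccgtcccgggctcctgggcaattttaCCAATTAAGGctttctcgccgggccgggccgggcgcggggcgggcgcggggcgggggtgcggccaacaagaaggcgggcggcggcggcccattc
The boxes begin 89 bases (CNN2) and 94 bases (FLNA) before the start site. A match is a run of letters, not a measured binding site.

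Total counts ranged from 16410001 to 29504297 per library. The level of TGFBR3, the gene that was overexpressed, went against the labels in 4 libraries. It was 15.9 CPM (read counts scaled to library size by the TMM method) in library 1 labelled control vector but 259 CPM in libraries 2 and 3 of that label, and 260 CPM in library 1 labelled ∆GAG-BG but 20.3 and 21.4 CPM in libraries 2 and 3, against 413 to 574 CPM in the 6 libraries of S534A and S545A. Groups are therefore named by their labels only. For the tested genes of the set, the range of estimates in each comparison is also given without those 4 libraries. Tests of cell type markers and of wider gene lists, CVs and correlations use all 12 libraries unless stated. Libraries 2 and 3 of the control vector, ∆GAG-BG and S545A were nearly alike. Chi-square over its degrees of freedom was 1.40 to 1.94 for these pairs across genes and 16.4 to 74.4 for the other pairs within a group, and the alike pairs were also analysed summed. As markers of cell identity, CDH1 and MUC16 held 0 counts in all 12 libraries, while KRT7 and PAX8 were present, with mean levels of 232 and 33.6 CPM per kilobase of exons. KRT8 (688 to 1007 CPM) and KRT18 (451 to 675 CPM) were also present. EPCAM (0.367 to 1.765 CPM) and KRT19 (0.141 to 0.789 CPM) were near 0. WT1 had 3.42 to 8.38 CPM and MSLN 6.9 to 18.0 CPM. Among endothelial markers, CDH5 had 58.4 CPM per kilobase, above PAX8. VWF had 2.64 to 14.9 CPM and PECAM1 0.205 to 0.768 CPM. Among 5 smooth muscle markers ACTG2 was at 0, DES did not exceed 1 count and MYH11 stayed between 0.567 and 1.33 CPM, so that defining genes of smooth muscle were absent or near 0. In bulk libraries, fewer expressing cells and less RNA per cell cannot be told apart.

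Crosslinkers dominated the set, and the smooth muscle genes were its lowest members. Per kilobase of exons, FLNA (filamin A, which ties filaments into networks and anchors them to integrins; chrX:154348524-154374638, 41 exon blocks) had a mean level of 221 CPM per kilobase over the 12 libraries. It was followed by ACTN1 (α-actinin-1, a crosslinker of stress fibres; chr14:68874143-68979440) at 51.7 and CNN2 (calponin 2, a non-muscle calponin; chr19:1026581-1039068) at 38.8. Next came TPM1 (tropomyosin 1; chr15:63042632-63071915) at 26.8 and CALD1 (caldesmon; chr7:134744252-134970728) at 14.8 CPM per kilobase. MYL9 (a regulatory light chain of myosin; chr20:36541484-36551447) reached 8.79 and TPM2 (tropomyosin 2; chr9:35681992-35691020) reached 7.03 CPM per kilobase. ACTA2 (smooth muscle α-actin; chr10:88935074-88991339) had 3.24, TAGLN (transgelin, SM22α; chr11:117199321-117204782) 0.715 and CNN1 (calponin 1; chr19:11538717-11550323) 0.0496 CPM per kilobase. Coordinates are those of the table, on GRCh38.

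That order held in 12 of 12 libraries for 7 of the 9 pairs of neighbours. CNN2 stood above TPM1 and MYL9 above TPM2 in 11 of 12 libraries, and the ranges of these 2 pairs overlapped. FLNA alone held 65.2% of the counts of the 10 genes, and the 10 genes together held 0.323% to 0.388% of all counts in a library.

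**Figure D1:**
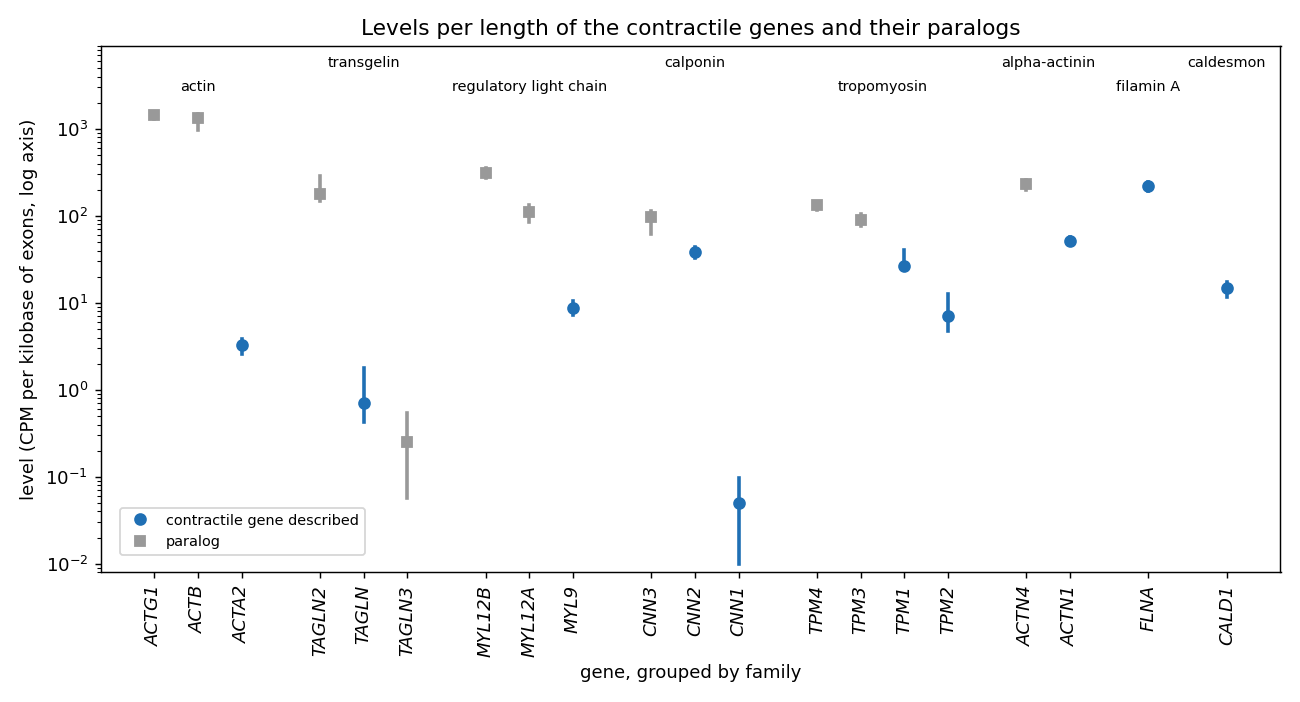
Level in CPM per kilobase of exons (log axis) for the contractile genes (blue circles) and their paralogs (grey squares), grouped by family; points are means and lines the range over the 12 libraries, with the lower end of CNN1, which had 0 counts in 1 library, drawn at the bottom of the axis, and paralogs with no more than 3 counts left out; FLNA and CALD1 are drawn without paralogs. ACTA2, TAGLN and CNN1 lie far below the leading paralog of their family.

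In each family described next, another gene outside the set carried the bulk of the transcript. Actin transcript was split between ACTB (1340 CPM per kilobase) and ACTG1 (1440), the cytoplasmic actins, and ACTA2 made up 0.117% of the family on this scale. Transgelin transcript was almost wholly TAGLN2, with 179 CPM per kilobase against 0.715 for TAGLN. Of the regulatory light chains, MYL12B (314) and MYL12A (110) exceeded MYL9, which held 2.04% of the family. These are the non-muscle forms of proteins whose smooth muscle forms are in the set.

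The calponin family was led by CNN3 at 96.3 CPM per kilobase, with CNN2 at 29.1% of the family and CNN1 at 0.0357%. The tropomyosins were led by TPM4 (134) and TPM3 (90.3), with TPM1 at 10.3% and TPM2 at 2.71%. ACTN4 (234) exceeded ACTN1, which held 18.2% of α-actinin transcript. Counts per kilobase depend on the exons assigned to each gene, so differences of this size between paralogs are descriptive.

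CNN1 was at the edge of detection. Its counts were 8, 5 and 3 in the control vector, 0, 4 and 2 in ∆GAG-BG, 6, 2 and 2 in S534A and 1, 2 and 8 in S545A, or 43 counts over the 12 libraries. In 7 libraries it had no more than 3 counts, the limit that a count of 0 allows, and that limit corresponds to 0.10 to 0.182 CPM. CNN1 did not pass the filter on low counts and was not tested, and no difference between groups could be detected at this depth. The other 9 genes were tested, so that statements on tests concern 9 of the 10.

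FLNA had levels of 2226, 2512 and 2425 CPM in the control vector, 2254, 2340 and 2470 in ∆GAG-BG, 2090, 2026 and 2519 in S534A and 2058, 2617 and 2587 in S545A. All 4 groups overlapped, and the spread within S534A and within S545A was nearly as wide as that of the whole set of 12. Its estimated differences ran from 0.11 lower to 0.13 higher on the log2 scale (SE 0.113), with 95% intervals between 0.781-fold and 1.30-fold over the 6 comparisons.

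ACTN1 was the steadiest gene of the set. Its levels were 581, 546 and 538 CPM in the control vector, 613, 529 and 538 in ∆GAG-BG, 538, 565 and 524 in S534A and 563, 527 and 532 in S545A. The coefficient of variation (CV, SD over mean) over the 12 libraries was 4.85%, against a median of 14.6% over all tested genes. The intervals of its differences lay between 0.852-fold and 1.14-fold in the 6 comparisons, the narrowest of the 9 genes.

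CNN2 had 137, 156 and 143 CPM in the control vector, 160, 138 and 128 in ∆GAG-BG, 134, 120 and 140 in S534A and 140, 152 and 150 in S545A. Its lowest library was S534A replicate 2 and its highest ∆GAG-BG replicate 1, and the groups overlapped. The intervals of its differences lay between 0.780-fold and 1.30-fold.

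CALD1 had 126, 150 and 158 CPM in the control vector, 115, 169 and 159 in ∆GAG-BG, 129, 137 and 168 in S534A and 122, 156 and 159 in S545A. The group means were almost equal, at 145, 148, 145 and 146 CPM, while the libraries of each group spread widely. Its largest estimated difference in either direction was 0.03 on the log2 scale (SE 0.160), with intervals between 0.769-fold and 1.30-fold.

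MYL9, whose phosphorylation switches on myosin, had 21.5, 25.8 and 25.9 CPM in the control vector, 23.1, 27.2 and 29.3 in ∆GAG-BG, 20.3, 24.4 and 25 in S534A and 20.3, 27.9 and 27.1 in S545A. Its lowest estimate was in S534A against ∆GAG-BG, at -0.19 on the log2 scale (SE 0.145), with overlapping groups and a two-sided exact permutation p of 0.3 (n = 3 in each group).

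ACTA2 had 7.71, 9.43 and 9.87 CPM in the control vector, 10.7, 9.29 and 8.67 in ∆GAG-BG, 8.25, 11.1 and 11.6 in S534A and 8.99, 10.0 and 10.0 in S545A. The groups overlapped, the highest and lowest of the 12 differed by 1.5-fold, and the intervals of its differences lay between 0.746-fold and 1.44-fold. These values rest on 191 to 332 counts per library. The exons of ACTA2 share 380 bases with FAS on the opposite strand, which reached 1726 counts. Whether strand was used in counting is not stated, so reads from this stretch may belong to either gene.

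**Figure D2:**
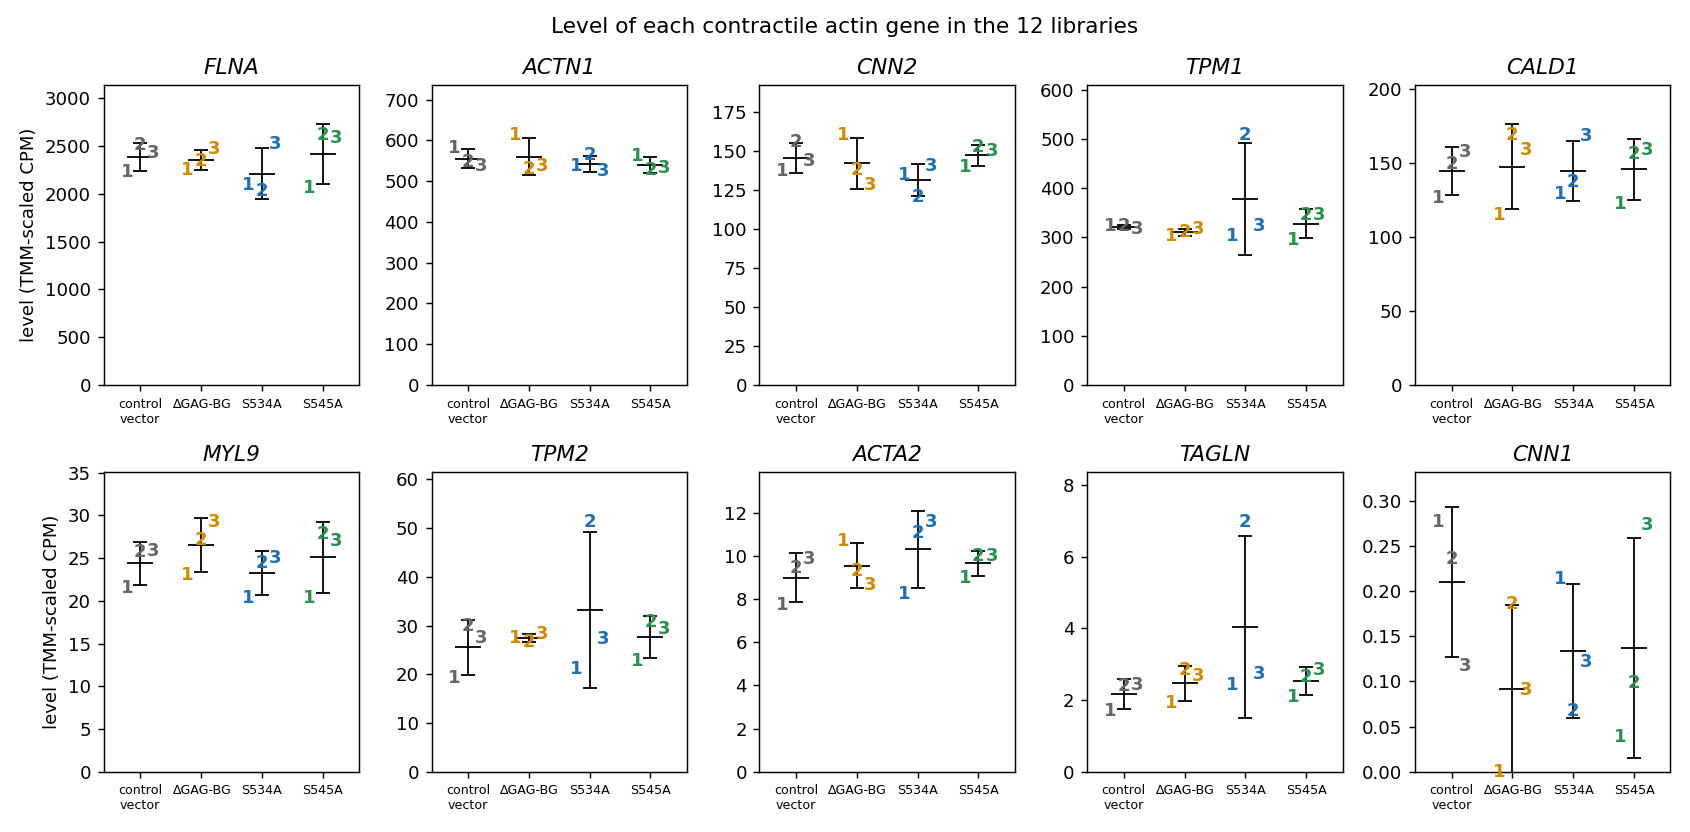
Level of each of the 10 genes in TMM-scaled CPM, each axis starting at 0, by group; digits are the libraries by replicate number, and the black bars the group mean ± SD (n = 3 libraries). The digit 2 of S534A stands above all other libraries for TPM1 (508 CPM), TPM2 (51.3 CPM) and TAGLN (6.97 CPM), and the groups overlap for all 10 genes.

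The 3 remaining genes, TAGLN, TPM1 and TPM2, were each highest in the same library, S534A replicate 2. TAGLN had 1.70, 2.4 and 2.43 CPM in the control vector, 1.91, 2.83 and 2.67 in ∆GAG-BG, 2.42, 6.97 and 2.73 in S534A and 2.09, 2.65 and 2.84 in S545A. The value of 6.97 CPM rests on 209 counts (95% exact Poisson interval 6.06 to 7.99 CPM, counting error only), and was 2.88-fold the mean of the other 11 libraries, which ran from 1.70 to 2.84 CPM. The other 2 S534A libraries fell within the range of the remaining groups. TAGLN shares 446 bases of exon with PCSK7 on the opposite strand, which reached 1070 counts, with the same limit as for ACTA2.

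TPM2 had 19.2, 29.9 and 27.5 CPM in the control vector, 27.4, 26.6 and 28.4 in ∆GAG-BG, 21.1, 51.3 and 27.3 in S534A and 22.7, 30.8 and 29.2 in S545A. S534A replicate 2 was 1.95-fold the mean of the other 11, whose highest was 30.8 CPM. TPM1 had 324, 323 and 317 CPM in the control vector, 303, 310 and 318 in ∆GAG-BG, 302, 508 and 323 in S534A and 295, 345 and 344 in S545A. There S534A replicate 2 was 1.59-fold the mean of the other 11. On the scale per kilobase, that library had 14.2% of tropomyosin transcript as TPM1 and 4.44% as TPM2, against at most 10.9% and 3% in the other 11 libraries.

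The same library was an extreme for many genes. It was the highest of the 12 for 26.1% of the 16069 tested genes and the lowest for 25.4%. Among the 9 tested genes of the set it was the highest for 3 and the lowest for 2, CNN2 (120 CPM) and FLNA (2026 CPM). It lay at least 1.5-fold above the highest of the other 11 for TAGLN and TPM2, and for 2.67% of all tested genes. The chaperone gene HSPA5 was also at its lowest there, at 287 CPM against 1228 to 11860 CPM in the other 11 libraries. The part of this library's state in the values of the set was not tested.

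Most fixed markers of cell types were not at their highest in that library, the exception being the ovarian marker WT1 (8.38 CPM). Of all tested genes, 26.1% were highest and 25.4% lowest there. The counts that follow come from short lists and are not read as a result about cell types or about these lists. None of the 2 tested smooth muscle markers was at its highest there, and MYH11, the smooth muscle myosin heavy chain, was at its lowest of the 12 (0.567 CPM). Both tested fibroblast markers, PDGFRB (0.701 CPM) and COL1A1 (7.97 CPM), and 2 of 3 endothelial markers were at their lowest, and so were 3 of 5 epithelial markers, EPCAM, KRT7 and KRT18. In the list of SRF and its targets, 5 of 14 tested genes were at their highest there and 3, MKL1, MKL2 and ZYX, at their lowest. The highest included SMTN (smoothelin, a smooth muscle actin-binding protein) at 109.7 CPM, against 41.2 to 79.2 CPM in the other 11 libraries, FHL2 (225.9 CPM) and PDLIM7 (152 CPM), named here after their values were seen. In the other lists more genes were lowest than highest there. For myosin and its regulation, 1 of 16 tested genes was highest and 10 lowest. The counts were 3 and 5 of 12 for paralogs, 4 and 6 of 21 for filament turnover, and 0 and 3 of 11 for adhesion linkers. The summed smooth muscle markers ran from 0.768 to 1.46 CPM in S534A and from 0.934 to 2.03 CPM in the control vector and ∆GAG-BG. SYNPO2 (synaptopodin 2), the other tested smooth muscle marker, had 2 to 15 counts per library and was lower in S534A than in ∆GAG-BG (unadjusted p = 0.00453 by edgeR, adjusted p = 0.890) and higher in S545A than in S534A (unadjusted p = 0.00942, adjusted p = 0.702). COL1A1 was lower in S545A than in ∆GAG-BG at the unadjusted p only (0.0373 by edgeR). At that cutoff 1.10% of all tested genes passed between these groups. COL1A1 had 8.57, 9.95 and 9.23 CPM in S545A. It had 8.48 CPM in library 1 of ∆GAG-BG, below all S545A libraries, and 16.8 and 17.7 CPM in libraries 2 and 3. The difference thus came from libraries 2 and 3 of ∆GAG-BG, where TGFBR3 goes against the label. No COL1A1 estimate without them is given.

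**Figure D3:**
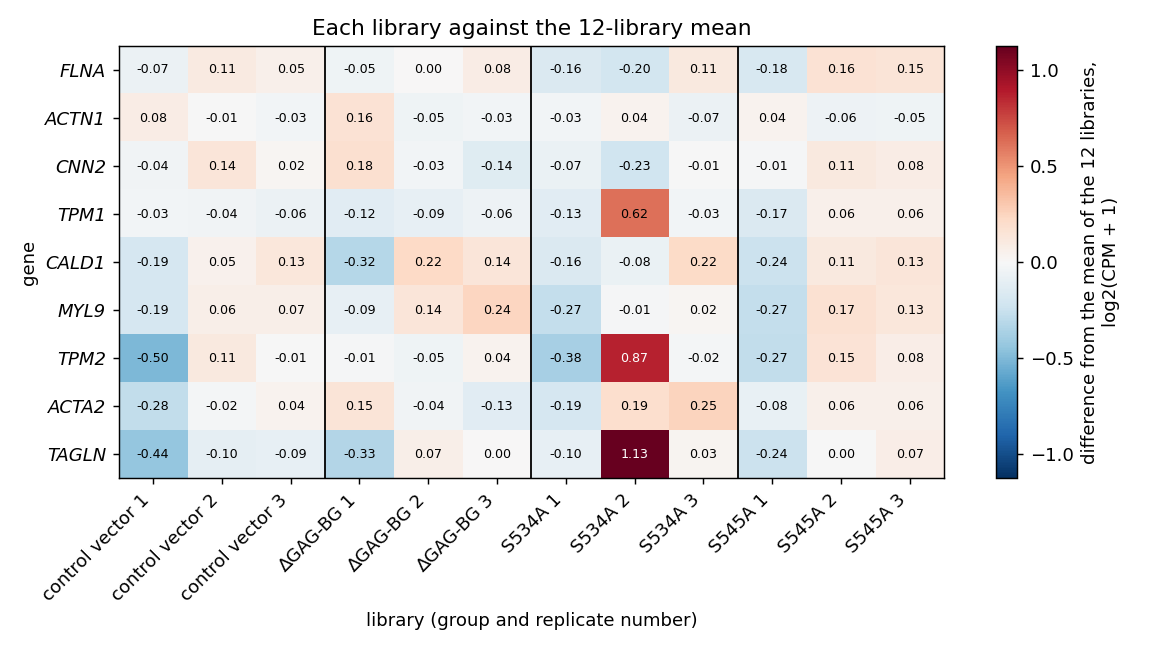
Difference of each library from the mean of the 12 libraries on the log2(CPM + 1) scale, for the 9 tested genes (rows) and 12 libraries (columns, with black lines between groups); red is above the mean and blue below. The column of S534A replicate 2 holds the largest values, in the rows of TAGLN, TPM2 and TPM1, and library 1 of each group is below the mean for CALD1 and MYL9.

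Library 1 was the lowest of its group for part of the set. TAGLN, MYL9 and CALD1 were lowest in library 1 in all 4 groups, a pattern that 3.92% of the tested genes showed, and 0 of the 9 genes were highest there in all 4 groups (3.91% of tested genes). For CALD1, library 1 was 0.703 to 0.846 of the mean of libraries 2 and 3, and for MYL9 0.739 to 0.832. The other genes did not share the pattern in all 4 groups. ACTA2, TPM1, TPM2 and FLNA were lowest in library 1 in 3 of the 4, a pattern whose share over all tested genes is not given. For FLNA, library 1 was 0.791 to 0.937 of the mean of libraries 2 and 3. ACTN1 was at 0.989 to 1.15, and CNN2 was above libraries 2 and 3 in ∆GAG-BG (1.2) and S534A (1.03). The labels attach no batch, date or culture to the number, and libraries 2 and 3 were nearly alike in 3 groups.

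Levels of the contractile genes were compared for each pair of groups. With no unmutated BG among the groups, loss of a chain or site could not be measured against it. Each comparison ran over all 16069 tested genes with edgeR's quasi-likelihood test and Benjamini-Hochberg adjustment. The cutoff was 0.05, on the unadjusted and on the adjusted p. None of the 9 genes passed with an adjusted p in any of the 6 comparisons, by edgeR, DESeq2 or limma. By edgeR, 0 of all 16069 tested genes passed with an adjusted p in any of the 6 either, so this is not particular to the set. At the unadjusted p a single gene of the set passed, TAGLN in S534A against the control vector. None of the 9 genes had groups of 3 that did not overlap in any comparison, while 4.87% of all tested genes did in ∆GAG-BG against the control vector, 7.65% in S534A and 8.82% in S545A against the control vector, 5.66% in S534A and 5.05% in S545A against ∆GAG-BG, and 10.1% in S545A against S534A.

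In ∆GAG-BG against the control vector, 0 of 9 genes passed at the unadjusted p, where 0.871% of all tested genes did. The estimates ran from -0.05 (TPM1) to 0.19 (TAGLN) on the log2 scale, with a median of 0.03. For 7 of the 9 genes the 95% interval lay within 1.5-fold in either direction, and it lay within 2-fold for 9 of 9. A p above the cutoff does not show that the groups were equal. The intervals treat the libraries of a group as independent, although each of these groups held a nearly alike pair. They may therefore be too narrow. They also take the labels as given, and TGFBR3 goes against the label in 4 libraries. No interval is given with the alike pairs summed or without those 4 libraries. Without the 4 libraries in which TGFBR3 goes against the label, 1 library stood on each side, with the spread taken from the S534A and S545A groups, the estimates ran from -0.15 (CALD1) to 0.50 (TPM2), and 0 genes passed.

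In S545A against the control vector, 0 of 9 passed, against 1.05% of all tested genes. The estimates ran from -0.04 (ACTN1) to 0.22 (TAGLN). In S545A against ∆GAG-BG, 0 of 9 passed, against 1.10% of all tested genes, and the estimates ran from -0.08 (MYL9) to 0.08 (TPM1), the narrowest range of the 6 comparisons. The intervals lay within 1.5-fold for 7 of 9 genes in both, with TAGLN and TPM2 beyond it. The 2 comparisons share the S545A libraries. Without the 4 libraries above, the estimates ran from -0.13 (ACTN1) to 0.55 (TAGLN) against the control vector and from -0.19 (ACTN1) to 0.40 (TAGLN) against ∆GAG-BG, and 0 genes passed in either.

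In S534A against the control vector, 1 of 9 genes passed at the unadjusted p, against 3.45% of all tested genes. TAGLN had 4.04 ± 2.55 CPM in S534A against 2.18 ± 0.416 CPM in the control vector (SD, n = 3 each), a log2 fold change of 0.92 (SE 0.361), or 1.89-fold, with an unadjusted p of 0.026 and an adjusted p of 0.871 by edgeR. The 2 groups overlapped, and the two-sided exact permutation test gave a p of 0.2, where 3 against 3 cannot go below 0.1. The adjusted p of TAGLN ranged from 0.417 to 1 over all alternatives. Without S534A replicate 2 the edgeR estimate was 0.24 (unadjusted p = 0.328). It was 0.76 (unadjusted p = 0.0912 by edgeR) without control vector replicate 1. Without the 4 libraries above, the estimates of the 9 genes ran from -0.12 (ACTN1) to 1.25 (TAGLN). The call was thus lost without either of 2 single libraries, and also under other models with all libraries present.

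The tropomyosins moved with the same library. In S534A against the control vector the log2 fold change of TPM2 was 0.39 (SE 0.277) and that of TPM1 0.24 (SE 0.159), and neither passed. Without S534A replicate 2 they were -0.08 and -0.04. TPM1 and TPM2 are given here because their values in that library stood out. The remaining 6 genes had log2 fold changes between -0.14 (CNN2) and 0.19 (ACTA2).

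In S534A against ∆GAG-BG, 0 of 9 genes passed, against 2.99% of all tested genes. The estimates ran from -0.19 (MYL9) to 0.73 (TAGLN, unadjusted p = 0.0659 by edgeR), with TPM1 and TPM2 at 0.28 each. Without S534A replicate 2 the estimates ran from -0.23 (MYL9) to 0.06 (TAGLN), TPM1 was at 0.01 and TPM2 at -0.19. Without the 4 libraries above they ran from -0.28 (CNN2) to 1.10 (TAGLN), and 0 genes passed. With all 12 libraries, the intervals lay within 1.5-fold for 6 of 9 genes and within 2-fold for 8 of 9.

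The 2 single mutants differ in which serine is left for a chain. In S545A against S534A, 0 of 9 genes passed, against 4.78% of all tested genes, the highest share of the 6 comparisons. The estimates ran from -0.70 (TAGLN, unadjusted p = 0.0751 by edgeR) to 0.16 (CNN2), with TPM1 at -0.20 and TPM2 at -0.27. Without S534A replicate 2 the estimates ran from -0.02 (CALD1) to 0.20 (TPM2), so TPM1 and TPM2 changed sign and the difference in TAGLN shrank to -0.02. Without the 4 libraries above the estimates ran from -0.69 (TAGLN) to 0.16 (CNN2), and 0 genes passed.

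**Figure D4:**
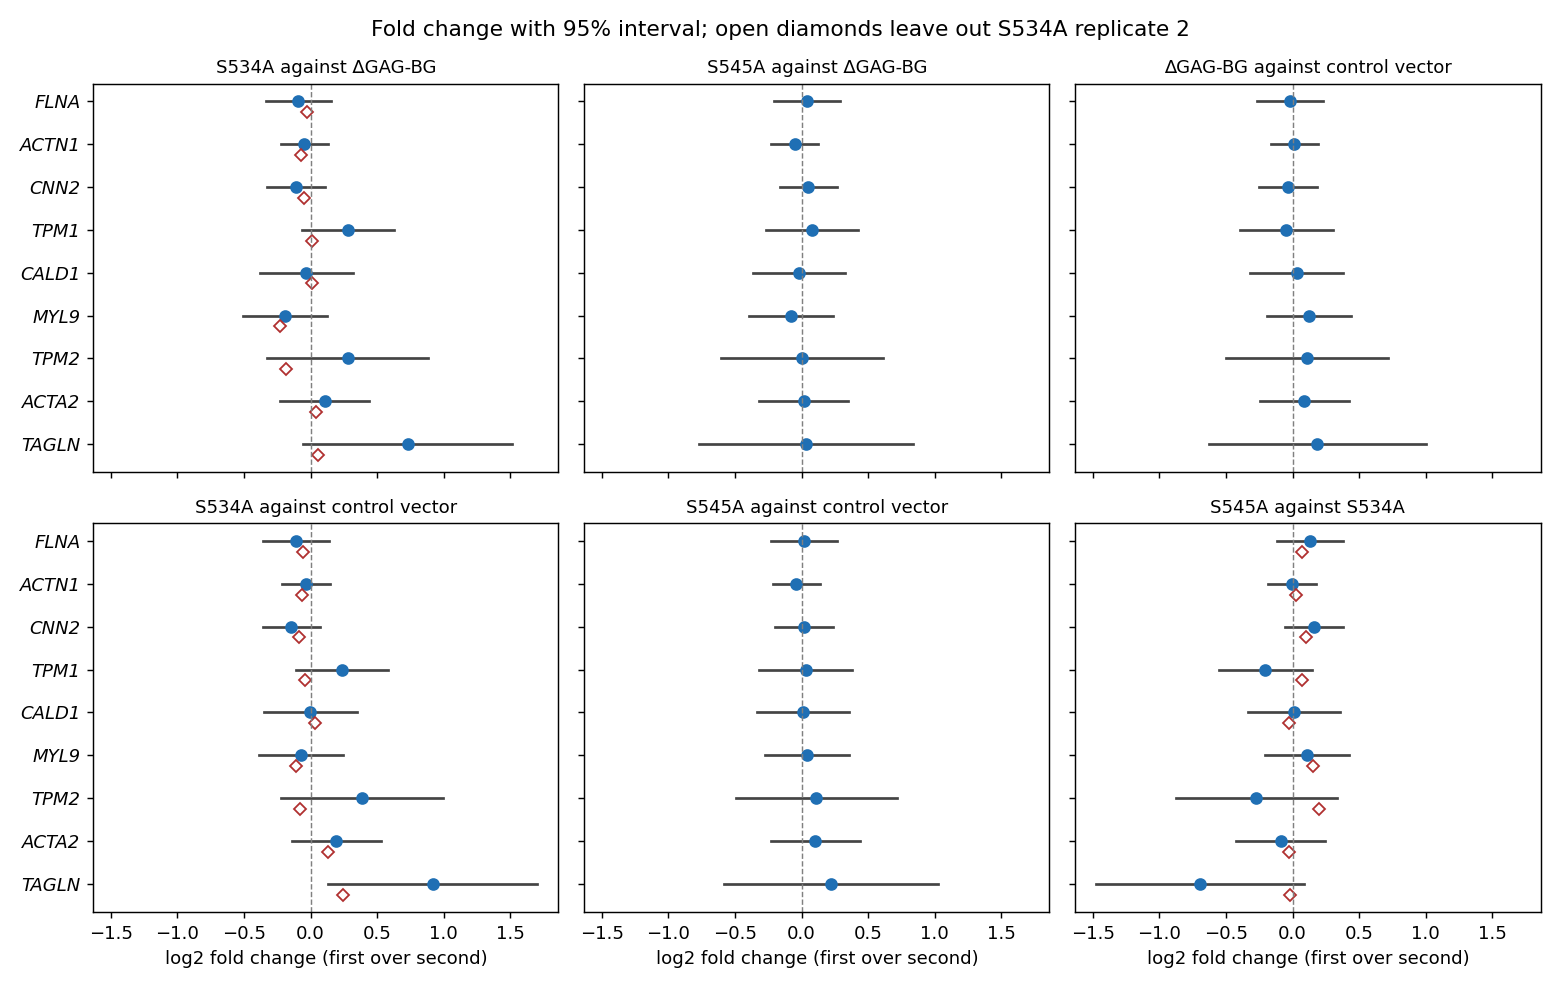
Log2 fold change (first group over second) of the 9 tested genes in the 6 comparisons from edgeR; blue points are estimates with all 12 libraries, lines their 95% intervals, and open diamonds the estimates without S534A replicate 2. The interval of TAGLN in S534A against the control vector is the only one that excludes 0, and without that library its estimate falls from 0.92 to 0.24.

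In a test for any difference among the 4 groups, 0 of the 9 genes had an unadjusted p under 0.05, against 1.55% of all tested genes, and the lowest was TAGLN at 0.0933 by edgeR. The count was also 0 without the 4 libraries above. S534A replicate 2 set much of the variation of 3 genes. The CV over the 12 libraries was 48.6% for TAGLN, 28.3% for TPM2 and 17.0% for TPM1, and 15.7%, 14.2% and 5.02% without that library. With it, 96.0%, 80.1% and 57.4% of all tested genes varied less than these 3. The other 6 had 4.85% to 12.9%.

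As a description over 12 libraries, the 36 pairs of the 9 genes had Pearson correlations of log2(CPM + 1) from -0.859 (CALD1 with ACTN1) to 0.916 (TAGLN with TPM1), with a median of 0.185, and 12 pairs were below 0. The set did not move as 1 block. TAGLN, TPM1 and TPM2 tracked each other (0.859 to 0.916), and all 3 were highest in S534A replicate 2. Without that library the correlations among these 3 were lower, at 0.412 to 0.641. The median of the 36 pairs was then 0.458. The highest pair was MYL9 with FLNA (0.882), while TAGLN with ACTN1 was lowest (-0.889). The genes most like the mean of the 9 were AHSA2 (0.971), POMGNT1 (0.969) and KIFC3 (0.961), and without S534A replicate 2 they were ITGB5 (0.995), LAMB2 (0.993) and ANTXR1 (0.990). These libraries share cell line and, in 3 groups, a nearly identical pair.

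Outside the set, 1 gene of the wider actin machinery passed. Of 16 genes of SRF and its targets, 14 were tested and 1 passed at the unadjusted p, TNS1 (tensin 1, which links actin filaments to integrin adhesions). TNS1 had 116, 143 and 116 CPM in S534A, 98.9, 104 and 110 in ∆GAG-BG, 111, 104 and 105 in the control vector and 114, 116 and 110 in S545A. All 3 libraries of S534A were above those of ∆GAG-BG (125 ± 15.9 against 104 ± 5.38 CPM, SD, n = 3), and S534A replicate 2 was the highest of the 12. The log2 fold change was 0.26 (SE 0.0918), with an unadjusted p of 0.0144 and an adjusted p of 0.890 by edgeR. Without that library it was 0.15 (unadjusted p = 0.0469 by edgeR). Against the control vector it was 0.23 (unadjusted p = 0.0288 by edgeR). Without that library it was 0.12 there (unadjusted p = 0.124 by edgeR). Without the 4 libraries above, TNS1 passed in neither comparison (unadjusted p = 0.0665 and 0.351 by edgeR).

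Of the transcription factors themselves, SRF was measured at 51.5 to 61.7 CPM and its cofactors MKL1 (27.0 to 33.6 CPM) and MKL2 (27.2 to 40.8 CPM) in all libraries, whereas the muscle-restricted cofactor MYOCD did not exceed 1 count in any library. CYR61, a secreted SRF and YAP target, was the highest of that list per length, at 640 CPM per kilobase. MYOCD was therefore not detectable at this depth.

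Of the 18 genes of myosin and its regulation, 16 were tested and 0 passed in any of the 6 comparisons. RHOA, the GTPase that switches on ROCK, was the highest per length, at 306 CPM per kilobase, and MYLK, the kinase that phosphorylates MYL9, had 107 to 159 CPM. All 21 genes of filament turnover were tested and 0 passed, with TMSB10, a monomer-binding thymosin, highest at 2640 CPM per kilobase. The 11 adhesion linkers were also all tested with 0 passing, and talin (TLN1) was the highest, at 74.4 CPM per kilobase. Of the 17 paralogs, 12 were tested and 0 passed. These counts are at the unadjusted p, where 0.871% to 4.78% of all tested genes passed in the 6 comparisons. The counts of 0, and of 1 among SRF and its targets, are near that share and are not read as a result about these lists.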

How the data were processed

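Total RNA of HEYA8 cells was sequenced as paired 150-base reads from a directional library kit. The authors deposited 1 table of raw counts per gene for the 12 libraries, and all its sample columns were used. The submitters' processing notes name FastQC, Trim Galore 0.4.5, STAR 2.4, SAMtools 1.2 and featureCounts, and the mouse builds mm10 and GRCm38. The table itself is human, since 33648 of its symbols have the coordinates of GENCODE release 29 on GRCh38. The sources used here do not say whether counting used strand. Multi-mapping between paralogs could shift their counts.

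From the deposited counts, genes passing filterByExpr at a minimum count of 10 were kept, library sizes were corrected by TMM, and edgeR 4.0.16 in R 4.3.3 was used for robust quasi-likelihood tests in 1 model of the 4 groups, with Benjamini-Hochberg adjustment over 16069 genes. Intervals are 95%. Logs for correlations and the heat map use a pseudocount of 1 CPM. Levels per kilobase use the table's exonic length. Two-sided exact permutation tests used SciPy 1.17.1. Alternatives included DESeq2 1.42.0, limma 3.58.1, other scalings and filters, and leaving out libraries. As a further alternative, the replicate number was added as a block to the model of all 4 groups. Deviations of same-numbered libraries from their group means had correlations of 0.732, 0.480 and 0.481 for S545A against the control vector, where the block changed no call. In the other comparisons these correlations ran from -0.312 to 0.544. On simulated data for S534A against ∆GAG-BG, in which 200 of 16069 genes differed 2-fold, 78% of those genes were recovered by edgeR beside 10 false calls. The simulated libraries were independent and had 1 common dispersion for all genes. They held no nearly alike pairs and no library like S534A replicate 2, so this share does not give the power in the real libraries. Intervals and limits from counts cover counting error only.

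The set and the gene lists were chosen with earlier results of these data known. The genes named were all 10 of the set, from each wider list those under an unadjusted p of 0.05 (at most 4) and the highest per length, the 3 tested genes most like the mean of the set, and TGFBR3 and HSPA5 as checks. PCR duplicates were not removed by molecular identifiers. Some items are not reported here.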

Additional observations from a re-analysis of the deposited data

How the results depend on the processing

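The count of genes of the set with an adjusted p under 0.05 was 0 in all 6 comparisons under every alternative run. In the edgeR fit of all 12 libraries, it was 0 of all 16069 tested genes as well. At the unadjusted p, the count of 1 in S534A against the control vector (TAGLN) became 0 with limma-voom, with limma on quantile-normalized values, with only the 2 groups in the model, after summing the 3 nearly alike pairs of libraries, and without libraries 2 and 3 of ∆GAG-BG and the control vector. With no filter on low counts, 2 genes passed in S534A against ∆GAG-BG and 1 in S545A against S534A. With the replicate block, which pairs no samples by design in S534A against ∆GAG-BG, 2 genes passed there (TAGLN and MYL9), and the block changed no other count. The causes were not tested. The share of all tested genes that passed under each alternative is not given. The counts under alternatives, here, below and in the Results, are therefore not read as a result about the set.

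Leaving out 1 library at a time, the counts ran from 0 to 2 in S534A against ∆GAG-BG, from 0 to 4 in S534A against the control vector, from 0 to 1 in S545A against S534A, and from 0 to 1 in the test over 4 groups. Without S534A replicate 1, 4 genes passed against the control vector, TPM2, ACTA2, TAGLN and TPM1, and without S534A replicate 2 or control vector replicate 1 none did. FLNA passed in S545A against S534A without S545A replicate 1. Of 153 recomputed fold changes of TAGLN, TPM1 and TPM2 in the 3 comparisons with S534A, 129 kept their direction and side of 0.05, 12 newly passed, 7 no longer passed and 5 reversed, all 5 without S534A replicate 2. Over the libraries left out 1 at a time, the log2 fold change of TPM1 ran from -0.040 to 0.37 against the control vector and from -0.34 to 0.072 for S545A against S534A. That of TPM2 ran from -0.19 to 0.52 against ∆GAG-BG, from -0.082 to 0.62 against the control vector and from -0.51 to 0.20 for S545A against S534A.

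The median correlation between genes of the set, 0.185, was 0.285 with group means subtracted, 0.199 with scaling by library size only and 0.458 without S534A replicate 2, the last an alternative chosen after seeing the data. CNN1, with at most 8 counts, and TAGLN, with 42 to 209, are limited by depth.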
